A study of Mus musculus with 6 samples.

Results

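The 7 genes described here encode histone demethylases of the KDM5, KDM1 and KDM2 families: Kdm5a, Kdm5b, Kdm5c, Kdm1a, Kdm1b, Kdm2a and Kdm2b. They were chosen by name, through the platform's gene symbols and their older synonyms such as Jarid1a, Jarid1b, Aof1 and Aof2. No value entered the rule, but earlier results of these data were known when the choice was made. The array carried 26 probes for them, among 45281 probes for 19057 named genes in all. RNA came from cultures of mammary epithelial cells, which form the ducts and milk-producing alveoli of the breast, harvested at an early passage and before confluence. Knockout (KO) cultures were Jarid1b-/- (Jarid1B Knock Out, the older symbol of Kdm5b) and wild-type (WT) cultures were Jarid1b+/+, with 3 arrays of each genotype on Illumina mouse bead arrays, lettered as pairs A, B and C. The sources used here do not give strain, age, passage number, the deleted part of the gene or the number of animals behind a culture. The p-values therefore describe the scatter among these 6 samples, part of which may be technical.

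As background, methylation of lysine 4 of histone H3 (H3K4) marks active promoters and enhancers, and its level is set by methyltransferases and by enzymes that take the methyl groups off again. The KDM5 enzymes are JmjC-domain oxygenases that remove the di- and trimethyl forms, while the KDM1 enzymes are flavin-dependent amine oxidases that remove the mono- and dimethyl forms. KDM2A and KDM2B are JmjC enzymes that bind unmethylated CpG DNA through a CXXC zinc finger; their best-known substrate is lysine 36 of histone H3, and removal of methyl groups from H3K4 has been reported for KDM2B. In the mammary gland, Kdm5b is best known as a gene with raised expression in luminal breast tumours.

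Between 17033 and 18686 probes per array were detected, meaning a deposited detection p under 0.05. That p is taken to compare a probe with its array's own negative controls. The first principal component, with 56.5% of the variance, set both arrays of pair C apart. The second, with 18.9%, set KO array A apart (45.8, against -18.6 to 6.5 in the other arrays). Krt8, Krt18 and Krt19, keratins of simple epithelia, and Cdh1, the gene of E-cadherin, were detected in every array at their brightest probes, whereas the 1 Epcam probe was detected in none. Epithelial markers were lower in KO at 5 of 5 tested genes (median log2 difference -0.31), with overlap at each. The median difference was -0.82, -0.13 and -0.09 in pairs A, B and C. Of 7 tested basal or myoepithelial markers, 3 were higher and 4 lower in KO (median -0.06). Of 8 macrophage or leukocyte markers, 5 were tested (4 higher and 1 lower in KO), with a mean log2 level of 7.03 to 7.30 in KO arrays and 6.92 to 7.19 in WT arrays. Lyz2, Cd14, Csf1r, Adgre1 and Tyrobp were detected on all arrays at their brightest probes, and Ptprc, the pan-leukocyte gene CD45, at none of its 4 probes on any array. The log2 difference of Lyz2, a lysozyme gene of myeloid cells, was 0.43, 0.79 and 1.32 in pairs A, B and C. Fibroblast markers were higher in KO at 10 of 10 tested genes, with a mean log2 level over the list between 7.64 and 8.68 in KO arrays and between 7.56 and 7.70 in WT arrays, and a median difference of -0.06 in pair B. At 4 of these 10 genes every KO value of the brightest probe lay above every WT value, against 2.84% of all tested probes. Col6a2 was 1 of these 4, but its dimmer tested probe overlapped. That probe read 5.57, 5.32 and 5.18 in KO cultures A, B and C, against 5.59, 5.39 and 5.05 in WT cultures. An unadjusted limma p under 0.05 was reached at 5 of the 10, against 3.24% of all genes at their brightest probe. Endothelial markers were higher at 5 of 5 tested genes, with a mean level of 8.65 to 9.98 in KO arrays and 8.80 to 9.08 in WT arrays, although all 5 were lower in KO within pair A (median -0.15); pairs B and C had medians of 1.0 and 0.22. Proliferation genes were higher at 15 of 15 tested genes, with a mean level of 5.81 to 7.72 in KO arrays and 5.67 to 6.89 in WT arrays, although in pair B their median difference was -0.30. None of these list members had a limma adjusted p under 0.05, and the part of cell composition and growth in the results below was not tested. In such bulk RNA, fewer cells of a type and less RNA per cell cannot be told apart.

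Kdm5b, the targeted gene, fell in KO cultures and was not detected in any of them. Values are log2 intensities after background correction and quantile normalisation. At its brightest probe (ILMN_1251270) Kdm5b read 4.42, 4.42 and 4.34 in KO cultures A, B and C, against 7.07, 6.89 and 6.60 in WT cultures A, B and C. All 3 KO values lay below the dimmest detected signal of their array, which was 4.49 to 4.60, and the genotypes did not overlap. Before normalisation the same KO arrays read 102.2, 96.5 and 95.8 at this probe, close to the median of all probes on them (100.5, 95.3 and 96.2), against 225.2, 197.6 and 181.2 in WT cultures. Kdm5b was at least 4.94-fold lower in KO, a bound that sets the WT mean against the dimmest detected signal or the probe's own, whichever is higher. The fitted log2 difference, taken against KO values that are background, was -2.46 (SE 0.18, 95% interval -2.89 to -2.03, limma adjusted p = 0.0155). Only probes detected on at least 3 arrays were tested (the detection filter), and this probe entered through its WT arrays alone. Without the filter it did not pass (limma adjusted p = 0.0688).

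The second Kdm5b probe (ILMN_2777722) read 4.23, 4.50 and 4.38 in KO cultures, against 6.85, 6.52 and 6.79 in WT cultures. It was at least 4.51-fold lower in KO, with a log2 difference of -2.35 (SE 0.18, limma adjusted p = 0.0155). It too entered the test only through its WT arrays, and without the detection filter it did not pass (limma adjusted p = 0.0688). The third probe (ILMN_2946020) was dim in WT too, with 4.30, 4.25 and 4.18 in KO cultures and 4.99, 5.11 and 5.33 in WT cultures. It was detected in all 3 WT arrays and in no KO array, and was at least 1.51-fold lower in KO. Its fitted log2 difference of -0.90 (SE 0.17), taken against KO values that are background, did not pass (limma adjusted p = 0.924). All 3 Kdm5b probes were lower in KO in every pair, with log2 differences between -2.65 and -0.70. Of 17920 tested probes, 3 had an adjusted p under 0.05 (0.0167%). Of these, 1 was higher in KO (0.00558%, Csrp1, named after its value was seen) and 2 were lower (0.0112%). Both lower ones were Kdm5b probes, and neither passed without the detection filter. The platform annotation ties the brightest probe to a GenBank cDNA record and the other probes to the RefSeq transcript. The position of each probe relative to the deleted part is not known from these files. Whether a probe reads the deleted part itself or the rest of the transcript is therefore not known.

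**Figure D1:**
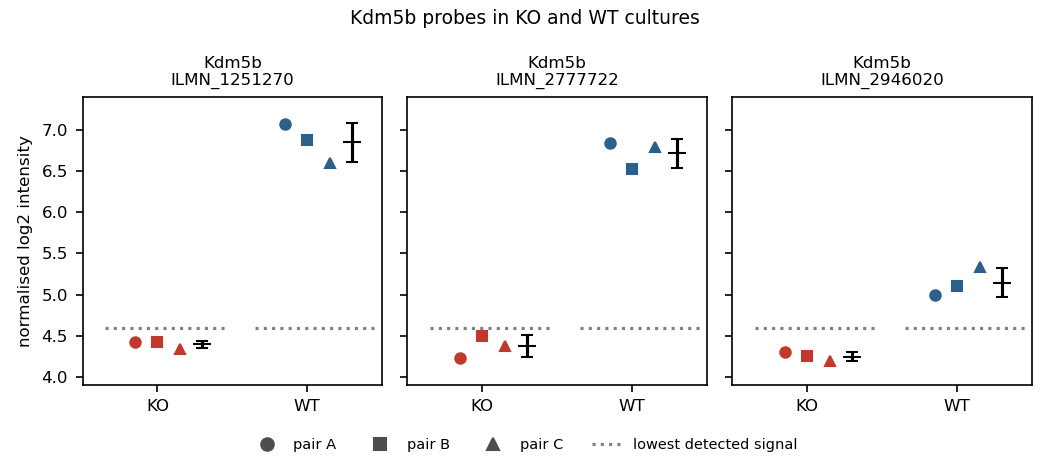
Normalised log2 intensity of the 3 Kdm5b probes in each KO and WT array (circle, pair A; square, pair B; triangle, pair C), with the group mean and SD in black and a dotted line at the highest of the arrays' dimmest detected signals. All KO points lie between 4.18 and 4.50, below the dotted line, and all WT points lie above it.

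The size of the Kdm5b change depends on the treatment of background, since its KO signal is background. Without background correction the log2 difference of the brightest probe was -0.97, on the authors' deposited table it was -0.89, and neither passed in limma (adjusted p = 0.163 and 0.197). Both probes passed the detection filter only through their WT arrays, and without that filter neither passed (limma adjusted p = 0.0688 for each). Leaving out 1 array ended the call of the brightest probe in 5 of 6 cases, with limma adjusted p = 0.125, 0.146 and 0.0781 without KO replicate A, B or C and 0.212 and 0.217 without WT replicate A or B. That call was kept without WT replicate C (limma adjusted p = 0.0371). For the second probe each of the 6 omissions ended the call, with adjusted p from 0.0781 to 0.212.

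The next comparison asks whether the other H3K4 demethylases were higher where Kdm5b is missing. None of them passed in either direction. Of their 23 probes, 7 entered the test, being detected on 3 or more of the 6 arrays. Those 7 probes cover all 6 genes. Of the 7, 0 had an adjusted p under 0.05, 0 had an unadjusted limma p under 0.05, against 3.03% of all tested probes, and 0 separated the genotypes without overlap, against 8.14% of all tested probes. Their log2 differences lay between -0.20 and 0.19 (median -0.07, against -0.02 over all tested probes), 2 of them positive and 5 negative. When the pair letter entered the fit as a replicate block, 0 of the 7 had an adjusted p under 0.05 and 0 an unadjusted one, against 0.0223% and 8.08% of all tested probes. A p that misses the threshold does not show that the levels were alike, so each difference is given with its 95% interval.

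Kdm5a (Jarid1a, RBP2) was first known as a retinoblastoma-binding protein and is a close paralogue of Kdm5b. Its brightest probe (ILMN_1260532) read 5.08, 4.78 and 4.96 in KO cultures A, B and C, against 4.92, 5.20 and 5.30 in WT cultures A, B and C. The values overlapped, and KO was above WT in pair A and below it in pairs B and C. The log2 difference was -0.20 (SE 0.18, 95% interval -0.63 to 0.23), which corresponds to 0.646-fold to 1.17-fold. Its second tested probe (ILMN_1258652) read 4.47, 5.17 and 4.76 in KO cultures, against 4.76, 4.86 and 4.96 in WT cultures. There the lowest and the highest value were both KO arrays, and KO array A was not detected. The log2 difference was -0.06 (SE 0.22, 95% interval -0.57 to 0.45). The other 3 Kdm5a probes stayed between 4.12 and 4.60, with 2 detected on no array and 1 (ILMN_1260558) in WT culture A only.

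Kdm5c (Jarid1c, Smcx) is the X-linked member of the family and is known to escape X inactivation in mouse. Its 1 tested probe (ILMN_1253604) read 4.67, 4.57 and 4.75 in KO cultures, against 4.70, 4.72 and 4.93 in WT cultures. The log2 difference was -0.03, -0.15 and -0.18 in pairs A, B and C, and the genotypes overlapped. Being below in all 3 pairs was shared with 19.2% of all tested probes. The fitted difference was -0.12 (SE 0.16, 95% interval -0.50 to 0.27), or 0.706-fold to 1.20-fold. KO array B was not detected, and 2 further Kdm5c probes were detected on no array. Kdm5d, the Y-linked counterpart, was detected on no array at either of its probes, with values from 4.16 to 4.37. All 4 Xist probes were detected on every array. Of 4 probes of Uty, another Y-linked JmjC gene, 1 was detected on 4 arrays. That probe read 4.46 to 4.98, close to the dimmest detected signal. The Y-linked gene Eif2s3y was detected on no array at either of its probes.

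The Kdm5a and Kdm5c signals lay close to the dimmest detected signal, with 1 KO array below it at the second Kdm5a probe and 1 at the Kdm5c probe, so a difference in either transcript is compressed on this scale. At the brightest Kdm5a probe the raw intensity was 116.4, 101.6 and 110.6 in KO cultures and 112.5, 117.5 and 120.7 in WT cultures. For Kdm5c it was 107.5, 98.9 and 105.7 in KO cultures and 108.0, 107.2 and 110.5 in WT cultures. Raising the constant added before the log from 16 to 50 moved the log2 difference of Kdm5a to -0.10 and of Kdm5c to -0.05. The intervals above hold for the main scale and for these probes.

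**Figure D2:**
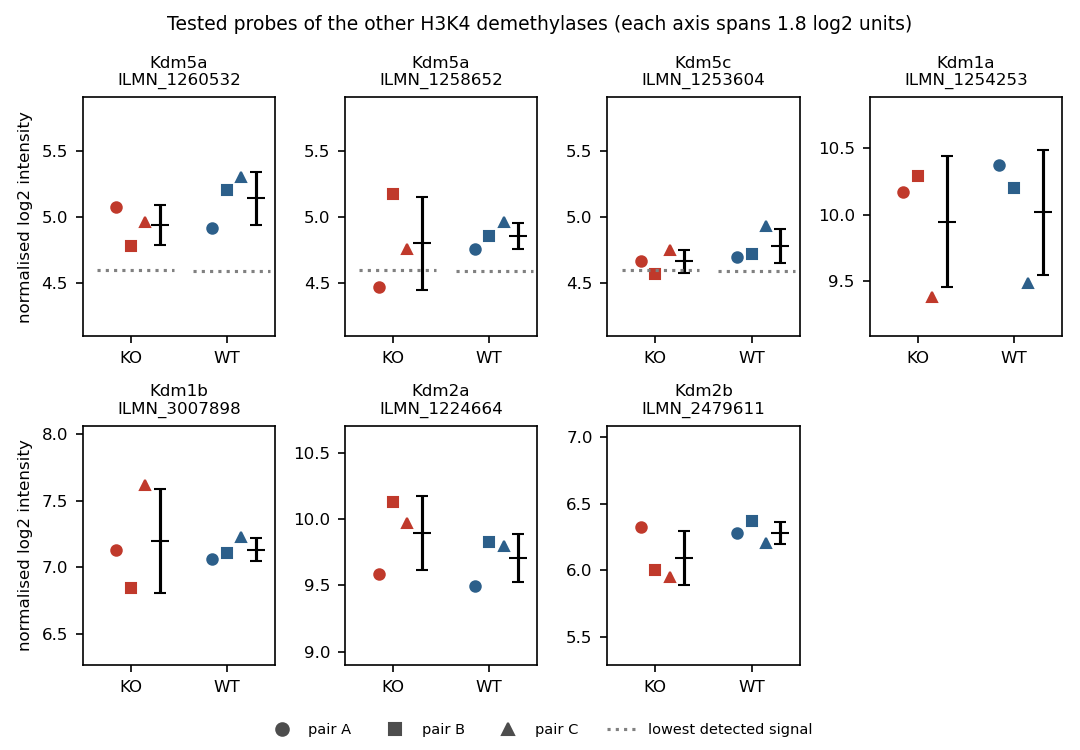
Normalised log2 intensity of the 7 tested probes of Kdm5a, Kdm5c, Kdm1a, Kdm1b, Kdm2a and Kdm2b in each KO and WT array (circle, pair A; square, pair B; triangle, pair C), with the group mean and SD in black and, where in range, a dotted line at the highest of the arrays' dimmest detected signals. KO and WT points overlap at every probe, and for Kdm1a both arrays of pair C lie apart from the other 4 arrays.

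Kdm1a (Lsd1, Aof2) is the catalytic subunit of the CoREST repressor complex. Its only probe (ILMN_1254253) was bright and read 10.17, 10.29 and 9.38 in KO cultures A, B and C, against 10.37, 10.20 and 9.49 in WT cultures A, B and C. Pair C stood apart, while pairs A and B overlapped each other and the genotypes did not separate. Both arrays of pair C, at 9.38 in KO and 9.49 in WT, were below the other 4 arrays, which lay between 10.17 and 10.37. Pair C was lower by 0.82 on average, a distance that 11.9% of all tested probes matched or exceeded, and this pattern was noticed in the values and is given without a test. Pair C was the highest pair for Kdm1b, by 0.39, and for Kdm5c, by 0.18. Of all tested probes, 39.3% matched or exceeded the distance of Kdm1b and 67.3% that of Kdm5c. Within pairs, KO minus WT was -0.20, 0.09 and -0.10 in A, B and C. The fitted difference was -0.07 (SE 0.33, 95% interval -0.85 to 0.71), the widest interval among the 7 probes.

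Kdm1b (Lsd2, Aof1), the paralogue of Kdm1a known for its part in maternal imprinting in mouse oocytes, read 7.13, 6.84 and 7.62 in KO cultures, against 7.06, 7.11 and 7.23 in WT cultures at its 1 tested probe (ILMN_3007898). The KO values spread on both sides of the WT values, with a SD of 0.39 in KO and 0.09 in WT. The log2 difference was 0.06 (SE 0.23, 95% interval -0.47 to 0.60), and under median scaling of the arrays it was -0.04. The other 4 Kdm1b probes were detected on no array.

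Kdm2a (Fbxl11) read 9.58, 10.13 and 9.97 in KO cultures, against 9.50, 9.82 and 9.80 in WT cultures at its tested probe (ILMN_1224664). KO was above WT in each pair, by 0.09, 0.31 and 0.17, as it was for 12% of all tested probes, but the KO value of pair A lay below the WT values of pairs B and C. The log2 difference was 0.19 (SE 0.21, 95% interval -0.30 to 0.68), or 0.813-fold to 1.60-fold, and it was positive under every alternative run. A second Kdm2a probe was detected on no array.

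Kdm2b (Fbxl10) recruits a variant Polycomb complex, PRC1.1, to CpG islands. Its 1 tested probe (ILMN_2479611) read 6.33, 6.0 and 5.95 in KO cultures, against 6.28, 6.37 and 6.20 in WT cultures. KO cultures B and C were the lowest arrays, and KO culture A lay among the WT values. The log2 difference was -0.19 (SE 0.18, 95% interval -0.61 to 0.22). The other 6 Kdm2b probes were detected on no array, so the gene was measured at 1 of its 7 probes.

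**Figure D3:**
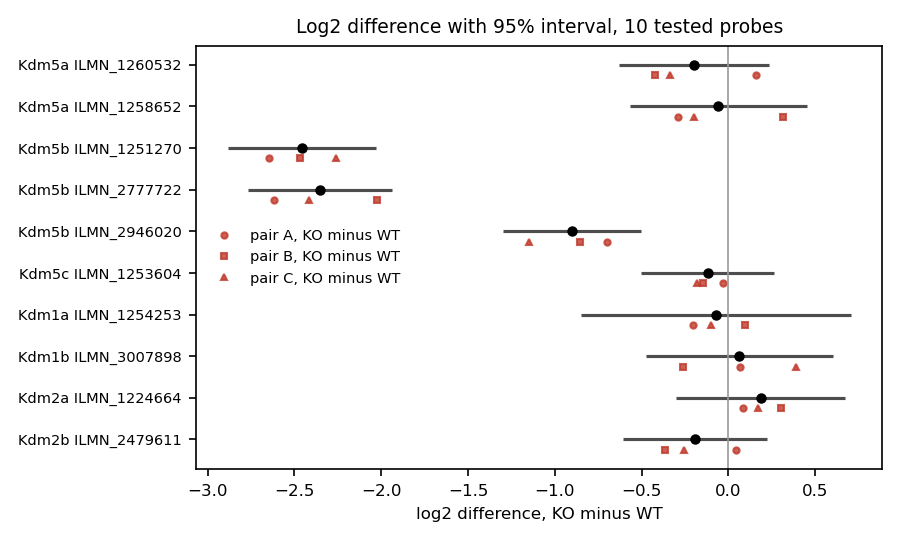
Log2 difference, KO minus WT, of the 10 tested probes (black point) with its 95% interval (line), and the difference within pairs A, B and C (red symbols under the line). The intervals of the 3 Kdm5b probes lie below 0, and those of the other 7 probes include 0 and stay between -0.85 and 0.71.

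All 7 intervals of the other demethylases ended below 1 log2 unit, the size of a doubling, at their upper end, and above -1 at their lower end. The Kdm5a and Kdm5c probes lay close to the dimmest detected signal, where differences are compressed. A doubling of either transcript could therefore read as less than 1 log2 unit, and the intervals of these probes do not bound it. The highest upper ends were those of Kdm1a (0.71), Kdm2a (0.68) and Kdm1b (0.60), and the highest in the KDM5 family was 0.45, at the second Kdm5a probe. This order holds for the fit without pairs: with the replicate block the upper end was 0.29 for Kdm1a, 0.54 for Kdm2a and 0.49 for Kdm1b. For the 16 member probes outside the test, all values lay between 4.12 and 4.60, and 15 of them were detected on no array. Signals of different probes have no common scale, so the levels of these genes are not ranked against each other.

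**Figure D4:**
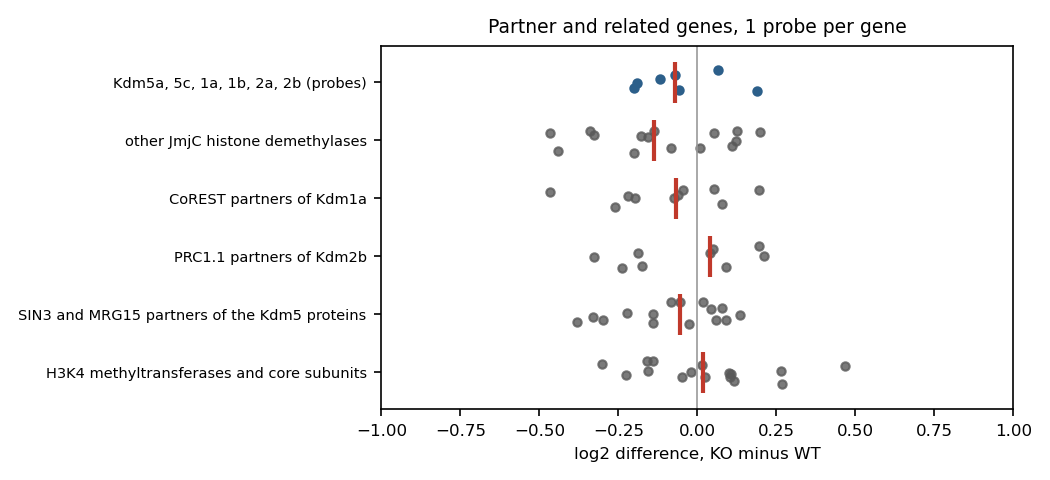
Log2 difference, KO minus WT, of each tested gene (grey points, 1 probe per gene) in 5 lists of related genes, above them the 7 tested probes of the 6 other members (blue), with the median of each row in red. All points lie between -0.47 and 0.47.

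Genes that act beside these enzymes did not pass the test either. The 5 lists held 79 genes, of which 64 had a tested probe. Of these 64, 28 were higher and 36 lower in KO (median log2 difference -0.05, against -0.01 over all genes). None had an adjusted limma p under 0.05, where 0.0192% of all genes had one at their brightest probe, and 1 of 64 had an unadjusted p under 0.05, against 3.24% of all genes. The genotypes did not overlap at 1 gene that was higher in KO and at 3 that were lower, where 2.84% and 5.3% of all tested probes did so. By group, 6 of 15 other JmjC proteins were higher and 9 lower (median -0.14). Among the CoREST partners of Kdm1a, 3 of 10 were higher and 7 lower (median -0.07). Of the PRC1.1 partners of Kdm2b, 5 of 9 were higher and 4 lower (median 0.04). Among the SIN3 and MRG15 partners of the KDM5 proteins, 6 of 15 were higher and 9 lower (median -0.05). Of the H3K4 methyltransferases and their subunits, 9 of 16 were higher and 7 lower (median 0.02).

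None of the following genes passed, and they are given as the 2 with the smallest p of each list. Men1, which encodes menin, the subunit that ties the methyltransferases KMT2A and KMT2B to chromatin, read 7.60, 7.53 and 7.26 in KO cultures, against 7.09, 7.15 and 6.75 in WT cultures. The genotypes did not overlap, and KO was above WT in every pair. The log2 difference was 0.47 (SE 0.19, limma adjusted p = 1.0). A second Men1 probe differed by 0.11 (SE 0.23) with overlap. Dpy30, a core subunit of the same complexes, differed by 0.27 (SE 0.30).

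Kdm4c, a JmjC demethylase of lysine 9 of histone H3, read 5.26, 4.60 and 5.32 in KO cultures, against 5.51, 5.41 and 5.66 in WT cultures, a log2 difference of -0.47 (SE 0.24) without overlap. At Kdm4c, KO array B (4.5962) lay just under the dimmest detected signal of that array (4.5977). Phf8, an X-linked JmjC demethylase that binds trimethylated H3K4 through its PHD finger, differed by -0.34 (SE 0.21). At Phf8, KO array C (4.33) lay under the dimmest detected signal of that array (4.49). Both differences are therefore taken in part against background. Among the CoREST partners, the log2 difference was -0.22 (SE 0.16) for the corepressor gene Rcor3 and -0.47 (SE 0.35) for Gse1. For the PRC1.1 partners it was -0.33 (SE 0.19) for Skp1, the adaptor of F-box proteins, and 0.20 (SE 0.16) for Yaf2. Suds3, a subunit of the SIN3 corepressor, read 10.41, 10.39 and 10.33 in KO cultures, against 10.60, 10.50 and 10.70 in WT cultures, a log2 difference of -0.22 (SE 0.16). Rbbp4, the histone-binding protein gene of several chromatin complexes, had a log2 difference of -0.38 (SE 0.34) at the brighter of 2 tested probes and of 0.01 (SE 0.18) at the dimmer.

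Kdm5b was the only member whose brightest probe spanned at least 1 log2 unit over the 6 arrays, with 2.73, and Kdm1a came next with 0.99. The genes whose profile over the 6 arrays was most like that of Kdm5b, by the root mean square difference of mean-centred log2 values, were Ipo9 (0.36), Nckap5 (0.59) and Dnajc12 (0.60). The importin gene Ipo9 read 5.79, 4.72 and 5.01 in KO cultures, against 7.76, 7.98 and 7.75 in WT cultures. Nckap5 read 4.32, 4.30 and 5.52 in KO cultures, against 6.50, 6.44 and 6.22 in WT cultures. Its values in KO arrays A and B lay below the dimmest detected signals of those arrays (4.56 and 4.60). Dnajc12, a J-domain cochaperone gene, read 5.31, 5.30 and 5.72 in KO cultures, against 6.72, 6.79 and 6.95 in WT cultures. None of the 3 passed in limma (adjusted p = 0.114, 1.0 and 0.42). Ipo9 and Nckap5 lie on the same chromosome as Kdm5b in the mouse annotation, and the share of all tested genes on it is not given here.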

How the data were processed

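Total RNA of 6 cultures was hybridised as biotinylated cRNA to Illumina arrays, per the labels' protocols. Probe intensity was deposited without normalisation, with a detection p-value for each probe and array, per the file headers. The headers do not define this p-value, and it is taken here to compare a probe with negative control beads. The authors' deposited value table is on a log2 scale and quantile-normalised, as its sorted columns, which are nearly identical, show. The submitters' processing notes list GenomeStudio and lumi without saying what each did. Intensities were background-corrected and quantile-normalised with neqc (offset 16) of limma 3.58.1 in R 4.3.3. Probes with detection p under 0.05 on at least 3 of 6 arrays (17920 probes) were tested one by one with lmFit and eBayes, KO against WT, two-sided, without a pair term, with Benjamini-Hochberg adjustment over all tested probes and a threshold of 0.05. Probe symbols came from the platform annotation, updated by gene ID through a table of GRCm38.p6. Of all probes 34885 had 1 symbol, 18 several and 10378 none here. The files name no genome build, so no coordinates are printed.

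The members and lists were chosen with earlier results of these data known. Named genes were all members, the 2 related genes of each list with the smallest p where none passed, and the 3 profiles most like a member spanning at least 1 log2 unit. For related lists a gene was its brightest tested probe. Per the labels the cultures came in pairs, and deviations from the group means correlated within a letter (0.352, 0.490 and 0.720 for A, B and C). Across letters, KO A with WT B gave 0.254 and KO B with WT A 0.423, and pair C arrays correlated negatively with arrays of the other letters. Deviations from a group mean cancel out within a genotype. With pair C apart in both genotypes, those negative signs follow and carry no information on pairing by letter. A replicate block by letter was tried as an alternative. Other alternatives were other normalisations, offsets, detection filters, probe summaries, variance models, array weights and omission of each array. Keeping pairs A and B only was added after seeing the data. Simulated data with known changes served to check the script. The number of arrays limits the precision.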

Additional observations from a re-analysis of the deposited data

How the results depend on the processing

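Under a replicate block by pair letter, both Kdm5b calls were kept (log2 difference -2.46, limma adjusted p = 0.0125, for the brightest probe) and 4 probes were called over the whole array. The block changed no call among the members, and it lowered the SE of Kdm1a to 0.15 (95% interval -0.43 to 0.29). The brightest Kdm5b probe kept its direction under all 17 alternatives that could be run and lost its call under 10 of them, namely without background correction (-0.97), on the authors' table (-0.89), with an offset of 50 (-1.45), without a detection filter (-2.46), when pair C was left out (-2.56, chosen after seeing the data) and in 5 of the 6 omissions of 1 array (-2.58 to -2.35 over all 6). The second probe lost its call under 11 of 15 alternatives. With detection p under 0.01 required on all 6 arrays, Kdm5b, Kdm5a and Kdm5c left the test. The number of probes called, 3 in the main setting, was 1 with an offset of 50, without a filter, on the deposited table and without background correction, 0 of 12741 with the strict filter (358 at an unadjusted p under 0.05 in limma), 5 with array weights, and 1 to 2 when an array was omitted. The unadjusted count of 543 was 1448 with the block, 1841 with array weights, 1132 and 911 without KO replicate B or WT replicate C, 254 and 248 without WT replicate A or B, 1002 with pairs A and B only and 1797 without a filter. Under all 18 alternatives 0 probes of the other 6 demethylases and 0 related genes were called in limma. Without a filter 1 of the 23 other member probes, an undetected Kdm1b probe, had an unadjusted p under 0.05. In all, 3 probes turned sign, each far from the threshold. The second Kdm5a probe was -0.24 to 0.11 over single omissions (0.11 without KO replicate A) and 0.01 (0.0111) without pair C. Kdm1a was -0.34 to 0.21 over single omissions, with 0.21, 0.11 and 0.02 without KO replicate C, WT replicate A or WT replicate B. Kdm1b was -0.15 to 0.24 over single omissions, -0.04 (-0.0375) with median scaling, -0.15 without KO replicate C and -0.10 without pair C. The cause of these shifts was not tested.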
